A study of Mus musculus with 20 samples.

Results

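A set of 10 endothelial genes was followed through the liver and kidney of male mice given a chemical reprogramming cocktail or its vehicle. It held Esm1, Ppp1r16b, Pecam1, Cdh5, Kdr, Stab2, Lyve1, Clec4g, Ehd3 and Plvap, which are 10 of the 57010 genes in the count table, and all 10 were found by Ensembl identifier. Esm1 and Ppp1r16b had been chosen by their values in the comparison of treated with vehicle animals in these libraries, so that contrast is described for them without a test. The other 8 genes stand for endothelial cells in general or for those of 1 organ.

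The mice were male UM-HET3 animals of 12 months, a stock in which each animal inherits its own mixture of alleles from several founder strains. Osmotic pumps under the skin delivered 7c or vehicle (50% DMSO and 50% PEG300) for 28 days. The 7c mixture gave 0.1 mg/kg/day each of repsox, tranylcypromine, DZNep, CHIR99021, forskolin and TTNPB, with valproate at 1 mg/kg/day, so the 7 compounds cannot be told apart. There were 6 libraries of 7c liver, 4 of vehicle liver, 6 of 7c kidney and 4 of vehicle kidney, each labelled a biological replicate.

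Endothelial cells line every blood vessel, and their gene use differs between organs. In the liver, sinusoidal endothelium is perforated by open fenestrae and clears macromolecules from blood through scavenger receptors and lectins. In the kidney, glomerular endothelium is fenestrated for filtration, and the peritubular capillaries carry fenestrae closed by a diaphragm. Vascular endothelial growth factor (VEGF) made by neighbouring epithelium signals through the receptor encoded by Kdr and maintains both kinds of vessel.

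Esm1 encodes endocan, a proteoglycan that endothelial cells secrete and that marks VEGF-stimulated tip cells at the front of growing vessels. Ppp1r16b encodes TIMAP, a membrane-anchored regulatory subunit of protein phosphatase 1 (PP1) in the family of the myosin phosphatase targeting subunits (MYPT). Pecam1 and Cdh5 encode adhesion proteins of endothelial junctions, the latter VE-cadherin. Stab2 and Lyve1 encode hyaluronan receptors and Clec4g a lectin of the sinusoid. Ehd3 encodes an endocytic ATPase known from glomerular endothelium, and Plvap the protein of the fenestral diaphragm.

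On GRCm39, Esm1 (ENSMUSG00000042379) lies at chr13:113346021-113354632 and Ppp1r16b (ENSMUSG00000037754) at chr2:158507318-158608254, both on the plus strand. Pecam1 is at chr11:106543689-106641454, Cdh5 at chr8:104828231-104871143, Kdr at chr5:76093487-76139884 and Stab2 at chr10:86675054-86843889. Lyve1 is at chr7:110448585-110462460, Clec4g at chr8:3757064-3770671, Ehd3 at chr17:74111129-74139089 and Plvap at chr8:71948674-71964506. The protein-coding gene Gzmk overlaps Esm1 on the opposite strand with at most 12 counts in any library, and Gtpbp3 overlaps Plvap likewise with up to 1490. The strand setting of the counting is not given in the sources used here, so the reads of Plvap and Gtpbp3 could not be told apart with certainty.

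RefSeq promoters (250 bases before to 50 after the start) were found for 6 of the 10 genes: Esm1, Ppp1r16b, Kdr, Stab2, Clec4g and Ehd3. They come from the table on GRCm38.p6, and each matched the GRCm39 sequence exactly at 1 place, whose position is given here. The 3 below belong to the 2 genes that were lower in 7c liver and to a gene nearly confined to liver. Capitals mark the core sequence bound by ETS factors, searched as CGGAAG and AGGAAG on both strands, so that CTTCCG and CTTCCT are also marked.
Esm1, chr13:113345943-113346242, plus strand: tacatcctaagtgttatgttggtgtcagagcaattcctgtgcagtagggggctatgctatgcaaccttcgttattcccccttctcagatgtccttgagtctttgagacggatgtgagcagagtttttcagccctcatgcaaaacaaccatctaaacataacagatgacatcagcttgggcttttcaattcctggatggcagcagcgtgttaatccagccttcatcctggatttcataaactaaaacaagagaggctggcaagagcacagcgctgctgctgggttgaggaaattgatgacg
Ppp1r16b, chr2:158508403-158508702, plus strand: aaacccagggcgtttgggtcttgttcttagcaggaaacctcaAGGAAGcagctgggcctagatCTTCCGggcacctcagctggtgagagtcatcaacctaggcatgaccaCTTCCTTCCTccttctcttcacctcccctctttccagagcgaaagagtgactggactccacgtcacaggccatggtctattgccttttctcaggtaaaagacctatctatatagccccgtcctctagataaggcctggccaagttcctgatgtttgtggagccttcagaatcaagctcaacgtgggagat
Clec4g, chr8:3770602-3770901, minus strand: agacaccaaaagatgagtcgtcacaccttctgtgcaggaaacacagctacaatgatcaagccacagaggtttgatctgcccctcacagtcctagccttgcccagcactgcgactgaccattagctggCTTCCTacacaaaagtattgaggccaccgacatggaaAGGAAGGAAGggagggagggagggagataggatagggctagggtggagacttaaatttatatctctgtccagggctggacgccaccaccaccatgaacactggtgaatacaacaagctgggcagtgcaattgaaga
The Esm1 window held 0 ETS cores, the Ppp1r16b window 4 and the Clec4g window 3, with overlapping copies counted separately. Stab2 and Ehd3 had 1 each and Kdr had 0, and a further Ppp1r16b promoter at chr2:158508805-158509104 had 0. Of all 32851 promoters in the table, 46.5% held at least 1 such core. TATAAA, also searched on both strands, was found in 1 of these windows, on the opposite strand of Clec4g (TTTATA in the strand shown), and in 13.6% of all promoters.

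Sequencing gave 28383359 to 34153084 counts per liver library and 27855849 to 64872451 per kidney library. Most low counts were even: among genes with 4 to 50 counts, 77.3% to 84.5% had an even count, against 50% for unrelated reads, and above 1000 counts the share was 51.1% to 57.8%. All 10 Esm1 counts in liver were even, and 9 of the 10 Ppp1r16b counts were. How the 2 ends of a read pair were counted is not given in the sources used here, so counting error may be larger than the counts show. The 7c liver replicate 6 stood apart: 5 skeletal muscle genes summed to 616.1 CPM (counts scaled to library size) there and to at most 0.289 in every other liver library. Beside many but not all of the liver results, values without it are also given. The organ labels fitted their markers: 5 hepatocyte genes summed to 68480 to 99800 CPM in liver, and 7 tubule genes to 11800 to 13900 in kidney and at most 1.76 in liver.

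The first comparison asked how the 10 genes differ between vehicle liver and vehicle kidney, a contrast the choice of Esm1 and Ppp1r16b did not use, although it shares the vehicle libraries with the one that did. Markers of 1 organ, such as Stab2, Clec4g and Lyve1 for liver, were listed for a known difference between organs. Fewer endothelial cells and less RNA per cell cannot be told apart in RNA from whole tissue. Levels between genes are given per exon length, as TPM, which scales the counts of a library for the exon length of each gene. Differences between the organs come from edgeR's quasi-likelihood test on counts scaled by TMM, with Benjamini-Hochberg adjustment over 17245 genes and a threshold of 0.05. The fold differences are therefore on that scale and are not ratios of the TPM values beside them. Of all tested genes, 25.7% were higher and 27.7% lower in liver. Clec4g and Lyve1 passed the filter on low counts (10 counts in 50% of the libraries) only through liver, where they are high, so they are given as counts and left out of the tally. Of the other 8 genes, which passed it in each organ alone, 4 were higher and 3 lower in liver, against 27.4% and 23.4% of the 14129 genes that did so.

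Clec4g and Lyve1 were nearly confined to liver in the vehicle animals. Clec4g had 1329, 1817, 1715 and 1749 counts in the 4 vehicle livers and 4, 0, 5 and 0 in the 4 vehicle kidneys. Lyve1 had 271, 249, 88 and 358 counts in liver and 8, 0, 4 and 6 in kidney. For both genes every kidney library lay below the lowest liver library, and the kidney counts are too few for a fold change.

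Stab2, the scavenger receptor for hyaluronan, was present in both organs. Its level was 17.6, 14.7, 20.1 and 19.8 TPM in vehicle liver and 1.39, 1.31, 1.45 and 1.26 TPM in vehicle kidney. The liver was 18.3-fold higher (log2 4.20, SE 0.16, adjusted p = 5.15e-09, edgeR). The kidney values varied little, with an SD of 0.0853 TPM around a mean of 1.35 (n = 4).

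Ehd3, listed here for glomerular endothelium, was higher in liver than in whole kidney. It measured 38.4, 53.8, 44.3 and 37.1 TPM in vehicle liver and 17.6, 12.1, 16.4 and 18.02 TPM in vehicle kidney. The groups did not overlap, as for Stab2. Among genes past the filter in both organs, 14.4% had all liver TPM values above all kidney values and 36.5% had them below. The Ehd3 level in liver was 3.78-fold higher (log2 1.92, SE 0.15, adjusted p = 1.21e-06, edgeR).

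Esm1 and Ppp1r16b were lower in liver. Esm1 measured 5.75, 3.45, 2.83 and 7.52 TPM in vehicle liver and 31.3, 25.5, 43.2 and 35.1 TPM in vehicle kidney, and the kidney was 4.92-fold higher (log2 difference of liver over kidney -2.30, SE 0.30, adjusted p = 6.81e-05, edgeR). Ppp1r16b measured 2.09, 3.33, 2.37 and 2.21 TPM in vehicle liver and 50.8, 27.7, 42.7 and 58.2 TPM in vehicle kidney. The kidney level of Ppp1r16b was 12.7-fold higher (log2 -3.67, SE 0.22, adjusted p = 1.11e-07, edgeR), and neither gene overlapped between the organs, as was so in this direction for the 36.5% named above.

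Plvap was also lower in liver, at 35.3, 46.1, 35.6 and 37.2 TPM in liver and 95.3, 154.0, 99.5 and 102.2 TPM in kidney (log2 -1.12, SE 0.23, adjusted p = 0.00188, edgeR). Kdr was 1.84-fold higher in liver (log2 0.88, SE 0.17, adjusted p = 0.000908, edgeR) and Cdh5 1.70-fold higher (log2 0.77, SE 0.23, adjusted p = 0.0163, edgeR). The TPM ranges of both overlapped between the organs. Kdr was at 17.18 to 26.14 TPM in liver and 10.95 to 21.15 in kidney, and Cdh5 at 14.69 to 27.27 and 8.69 to 22.42. Pecam1, at 6.25 to 10.97 TPM in liver and 11.02 to 18.3 TPM in kidney, did not overlap. It did not pass the test on TMM-scaled counts (log2 -0.30, SE 0.17, adjusted p = 0.1495, edgeR).

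The size of these differences depended on the scaling. TMM left the median log2 difference of all genes at -0.06, and scaling by library size alone moved it to -0.66 and the calls from 4439 higher and 4776 lower to 2399 higher and 8160 lower. With library size alone Kdr and Cdh5 no longer passed, at 0.27 (adjusted p = 0.235) and 0.15 (adjusted p = 0.646), and Pecam1 passed as lower in liver at -0.91 (adjusted p = 0.001845). The other 5 of the 8 genes kept their direction and call, but Stab2 moved to 3.602, Ehd3 to 1.31, Plvap to -1.70, Esm1 to -2.91 and Ppp1r16b to -4.29 on the log2 scale.

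**Figure D1:**
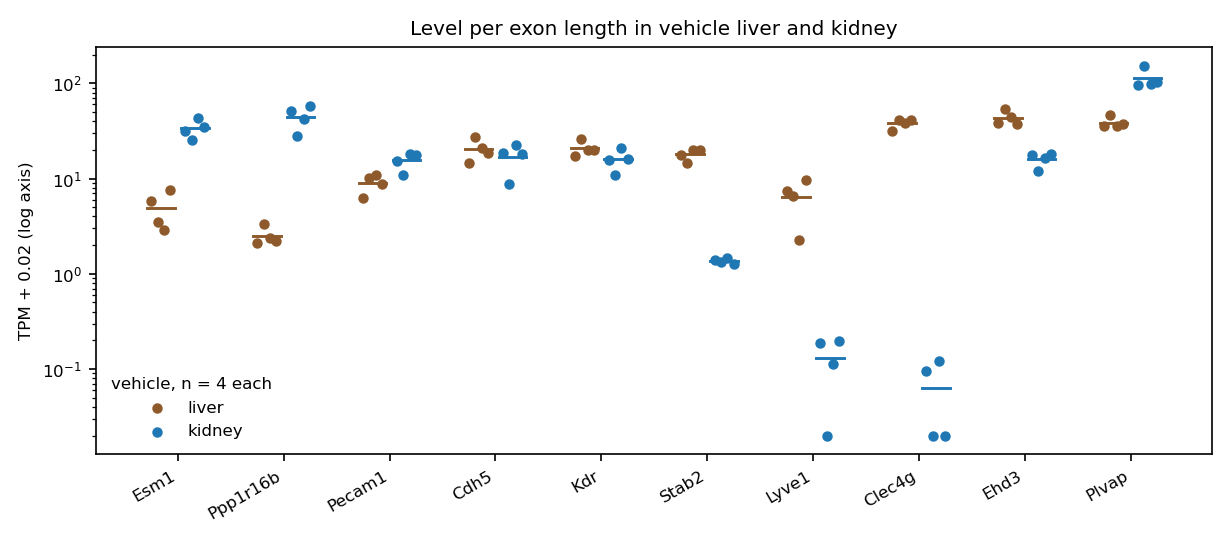
Levels of the 10 genes in the 4 vehicle livers (brown) and 4 vehicle kidneys (blue), as TPM plus 0.02 on a log axis, with a line at each mean. Clec4g, Lyve1 and Stab2 sit far higher in liver, Esm1, Ppp1r16b and Plvap higher in kidney, and Pecam1, Cdh5 and Kdr lie close together.

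Within each organ the 10 genes formed different orders. In vehicle liver the mean level per length ran from Ehd3 (43.4 TPM ± 7.64, SD, n = 4), Plvap (38.6 ± 5.10) and Clec4g (38.2 ± 4.61), whose ranges overlapped. Kdr (20.9 ± 3.77), Cdh5 (20.4 ± 5.28) and Stab2 (18.1 ± 2.49) followed, also with overlapping ranges, and then Pecam1 (9.03 ± 2.08) and Lyve1 (6.41 ± 3.04). Esm1 (4.89 ± 2.16) and Ppp1r16b (2.50 ± 0.564) had the lowest means of the 10. From Pecam1 downwards each gene overlapped the next in this order.

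In vehicle kidney Plvap was the highest at 112.8 TPM ± 27.6 (SD, n = 4). Ppp1r16b (44.8 ± 13.04) and Esm1 (33.8 ± 7.45) came next, with overlapping ranges. Cdh5 (17.0 ± 5.85), Ehd3 (16.03 ± 2.71), Kdr (15.9 ± 4.16) and Pecam1 (15.5 ± 3.29) could not be ordered beyond their spread. Stab2 (1.35 ± 0.0853), Lyve1 (0.1095 ± 0.0825) and Clec4g (0.0438 ± 0.0518) were the lowest.

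The same contrast in the 7c animals used the treated livers on whose low values Esm1 and Ppp1r16b had been chosen, so their log2 differences of -4.00 (SE 0.24) and -4.42 (SE 0.16) are given as a description. Of the 6 other genes past the filter in both organs, Stab2, Ehd3, Kdr and Cdh5 were higher and Plvap (-1.59, SE 0.17) and Pecam1 (-0.85, SE 0.14) lower in liver, against 33.4% and 30.3% of the 14146 genes that passed it in both organs and 30.9% and 34.8% of all 17117 tested. With library size alone Cdh5 turned to -0.18 (adjusted p = 0.386, edgeR) and Kdr lost its call at 0.01 (adjusted p = 0.981, edgeR).

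Genes of the wider lists, which hold VEGF ligands and PP1 subunits beside endothelial markers, differed between the organs in both directions. Over 8 lists of endothelial, VEGF, caveolar and PP1 genes, 79 genes besides the 10 were tested in vehicle animals, and 22 were higher and 29 lower in liver. With library size alone these numbers were 19 and 45. Of the 73 that passed the filter in both organs, 20 were higher and 25 lower, beside 27.4% and 23.4% of all such genes, and whether the lists differ from those shares was not tested. The counts by list that follow are over genes that passed in both organs. Counts by list, here and below, include those of the 10 genes that are in the list. Of the 32 pan-endothelial genes, 7 were higher and 10 lower in liver. S1pr1, a receptor for sphingosine 1-phosphate, stood at 49.3 to 84.8 TPM in liver and 2.52 to 5.93 in kidney (log2 4.29, SE 0.25), and Emcn, the sialomucin endomucin, at 1.26 to 2.37 TPM in liver and 25.0 to 31.0 in kidney (log2 -3.33, SE 0.20). Cd34 was lower in liver (log2 -2.99, SE 0.32) and Vwf, von Willebrand factor, higher (2.29, SE 0.40).

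Of 14 genes of liver sinusoidal endothelium, 10 passed the filter in both organs, and 9 of these were higher in liver and 0 lower. The rest were Clec4g, Lyve1, Gata4 and Oit3. Dnase1l3, a secreted DNase, had 2028 to 3168 counts in liver and 8 to 44 in kidney, and the transcription factor Gata4 552 to 686 in liver and 0 in all 4 kidneys. Oit3 had 736 to 1379 counts in liver and 0 to 24 in kidney. Of 5 genes listed for glomerular endothelium, Pi16 and Gata5 had at most 19 and 2 counts in liver and passed the filter only through kidney. Of the other 3, 1 was lower in liver (Plat, tissue plasminogen activator, at -4.92 with SE 0.37) and 2 higher, Ehd3 and the transcription factor Tbx3 (3.96, SE 0.29). In the list of 6 angiocrine genes, Rspo3 (4.25, SE 0.36) and Wnt2 (3.22, SE 0.58), ligands that central vein endothelium makes for hepatocytes, were higher in liver and Thbd, thrombomodulin, lower (-2.39, SE 0.31).

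Among 9 VEGF ligands and receptors, 4 were higher in liver, Flt4 (1.98, SE 0.19) and Nrp1 (1.85, SE 0.17) among them, and 3 lower, including the ligand Vegfb (-1.39, SE 0.28). The ligand Pgf had 0 to 6 counts in liver and 12 to 32 in kidney. The 8 tip cell genes that could be compared, Esm1 included, had 0 higher and 5 lower in liver. Among these, Pdgfb was at -3.21 (SE 0.26), Angpt2 at -1.43 (SE 0.37). Apln, the ligand apelin, had 0 to 16 counts in liver and 158 to 268 in kidney. Of 8 genes of fenestrae and caveolae, 7 were lower in liver and 0 higher, led by Cavin3 (-2.90, SE 0.46), Cav2 (-2.24, SE 0.27), Ehd4 (-2.10, SE 0.31) and Cav1 (-2.06, SE 0.22).

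In the family of Ppp1r16b, its closest relative Ppp1r16a was also lower in liver, but by less: 17.99 to 23.2 TPM in liver and 52.5 to 66.2 in kidney (log2 -1.04, SE 0.15, adjusted p = 0.000121, edgeR). The catalytic subunit Ppp1cb (0.64, SE 0.15) and the myosin phosphatase subunit Ppp1r12a (0.51, SE 0.18) were higher in liver. Of the 8 genes, 2 were higher and 2 lower.

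The second comparison asked how the genes differed in liver between 7c and vehicle. Values are CPM with TMM scaling within the tissue. Of all 15012 tested genes, 1 passed the threshold, which is 0.00666%, with 565 at an unadjusted p under 0.05. This gene was Zfp949, a zinc finger gene outside the set (log2 -1.29, SE 0.14, adjusted p = 0.00591, edgeR), named after its value was seen. Depth in 7c livers was below that in vehicle livers, at 28383359 to 30571119 against 31670440 to 34153084 counts.

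Esm1 was lower in the livers of treated animals. Its level was 1.18, 0.900, 0.864, 0.610, 0.939 and 1.81 CPM in the 6 libraries of the 7c group (18 to 50 counts) and 3.83, 2.06, 1.71 and 4.50 CPM in the vehicle group (60 to 154 counts). In the 7c group 5 of the 6 livers lay below all 4 vehicle livers, and replicate 6 lay between the 2 lowest of them. The log2 fold change was -1.52 (SE 0.37), a 2.88-fold lower mean. Without 7c replicate 6 it was -1.74, and without vehicle replicate 4 it was -1.26, the bounds over all libraries left out in turn.

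Ppp1r16b was lower in all 6 treated livers. It measured 2.29, 2.96, 3.26, 3.49, 3.39 and 2.17 CPM with 7c (60 to 103 counts) and 5.61, 8.02, 5.74 and 5.32 CPM with vehicle (170 to 280 counts). The groups did not overlap, as was the case in this direction for 0.4% of all tested genes, and since the gene was chosen on this contrast nothing is read from that. The log2 fold change was -1.08 (SE 0.21), a 2.11-fold lower mean. It was -1.002 without 7c replicate 6 and -0.92 without vehicle replicate 2, the highest of the 10 livers.

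**Figure D2:**
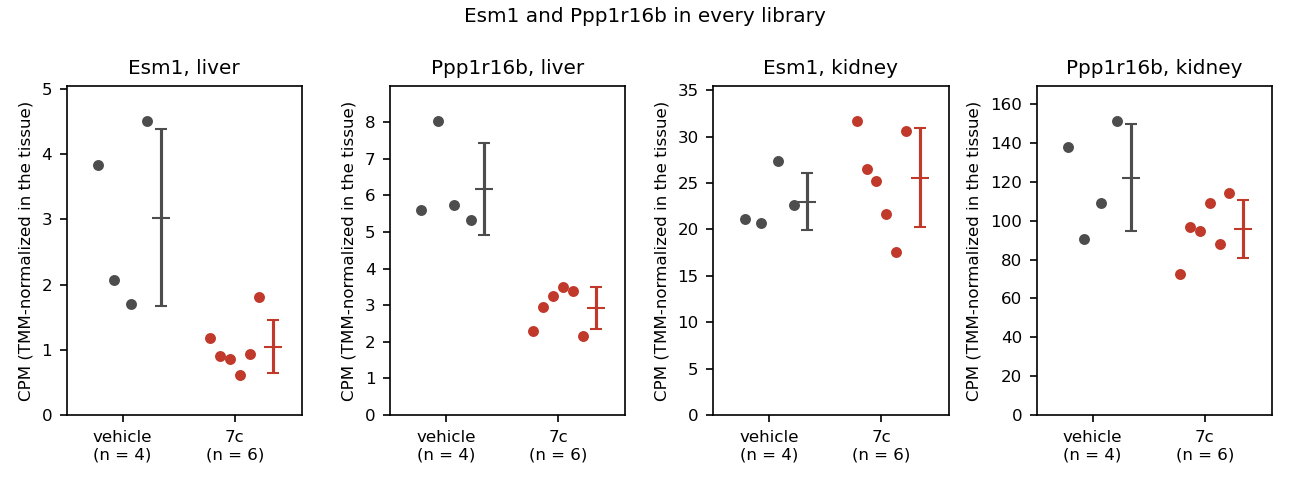
CPM of Esm1 and Ppp1r16b in every library, with vehicle in grey and 7c in red, and bars at mean ± SD. In liver 5 of 6 Esm1 values and 6 of 6 Ppp1r16b values with 7c lie below all vehicle values, while in kidney the groups overlap for both genes.

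None of the other 8 genes passed the test in liver (adjusted p = 1.00 for each, edgeR), and 1 of them, Pecam1, had an unadjusted p under 0.05. DESeq2, limma-voom and the likelihood ratio test also called 0 of the 8. Their log2 fold changes ran from -0.39 for Pecam1 to 0.05 for Clec4g.

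Among the pan-endothelial genes, Pecam1 was at 16.9, 22.7, 21.6, 14.3, 20.6 and 15.2 CPM with 7c and 18.3, 26.9, 29.1 and 22.9 CPM with vehicle (log2 -0.39, SE 0.16), and 3 of the 6 treated livers lay below all vehicle livers (2 of 5 without replicate 6). Cdh5 was at 15.9 to 29.5 CPM with 7c (median 21.6) and 18.9, 31.5, 24.6 and 21.6 CPM with vehicle (-0.19, SE 0.18). Kdr was at 27.9 to 58.6 CPM with 7c (median 49.5, lowest 38.95 without replicate 6) and 46.3 to 63.4 CPM with vehicle (-0.16, SE 0.18). The groups overlapped for each of the 3, and the approximate 95% interval of the Kdr difference, -0.51 to 0.19, covers both directions.

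The sinusoidal genes spread widely between livers. Stab2 ran from 24.6 to 84.5 CPM with 7c (median 48.6) and from 41.8 to 57.5 CPM with vehicle (-0.13, SE 0.26). Lyve1 ran from 2.30 to 11.2 CPM with 7c and from 2.50 to 10.5 CPM with vehicle (-0.26, SE 0.40), the widest error of the 10 genes. Leaving out 1 library at a time, Lyve1 went from -0.54 without vehicle replicate 3 to -0.03 without vehicle replicate 4. Clec4g ran from 30.9 to 64.8 CPM with 7c and from 43.8 to 52.1 CPM with vehicle (0.05, SE 0.17), with 3 treated livers above and 1 below all vehicle livers. The liver below was replicate 6, and without it Clec4g ran from 45.99 CPM, with 3 of 5 above and 0 below. The interval of the Stab2 difference was -0.64 to 0.38 and that of Lyve1 -1.04 to 0.52.

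Ehd3 was at 46.5 to 92.3 CPM with 7c (lowest 58.3 without replicate 6) and 66.0 to 95.9 CPM with vehicle (-0.19, SE 0.17). Plvap was at 29.4, 41.9, 43.5, 30.7, 27.4 and 32.2 CPM with 7c and 39.7, 46.7, 36.3 and 37.7 CPM with vehicle (-0.23, SE 0.14), with 4 of 6 treated livers below all vehicle livers (3 of 5 without replicate 6).

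Of the 8 genes not chosen on this contrast, 7 had a log2 fold change under 0 in liver (median -0.19), as did 49.6% of all tested genes. The genes share their libraries: 7c replicate 6 was the lowest of the 10 livers for 6 genes (Ppp1r16b, Cdh5, Kdr, Stab2, Clec4g and Ehd3), and vehicle replicate 2 the highest for 5 (Ppp1r16b, Cdh5, Kdr, Ehd3 and Plvap). Without 7c replicate 6, Stab2 moved to 0.01 and Clec4g to 0.16, and 6 of the 8 were under 0 (median -0.10). The others were then at -0.34 for Pecam1, -0.11 for Cdh5, -0.04 for Kdr, -0.29 for Lyve1, -0.10 for Ehd3 and -0.21 for Plvap. Without 7c replicate 2, 8 of the 8 were under 0 (median -0.29). Without vehicle replicate 2, Cdh5 moved to -0.03 and Kdr to -0.04.

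The wider lists showed no called gene. Of 75 tested genes of the 8 lists besides the 10, 0 passed in liver (edgeR), and 46 were under 0 (median log2 fold change -0.05). Leaving out each library in turn, this count ran from 36 of 75 without 7c replicate 4, where the median turned to 0.01, to 52 of 75 without vehicle replicate 3, and it was 41 of 75 without 7c replicate 6. The pan-endothelial list summed to 383.1 to 616.5 CPM with 7c (from 417.1 without replicate 6) and 494.0 to 573.7 CPM with vehicle, with 2 treated livers below (1 without replicate 6) and 1 above all vehicle livers. The sinusoidal list summed to 293.9 to 601.7 CPM with 7c (from 392.7 without replicate 6) and 428.8 to 531.4 CPM with vehicle, with 4 of 6 treated livers below and 1 above all vehicle livers. The glomerular list summed to 70.6 to 116.4 CPM with 7c (from 90.8 without replicate 6) and 103.7 to 128.9 CPM with vehicle, with 4 of 6 below and 0 above. Most of this sum in liver is Ehd3, one of the 10 genes, at 46.5 to 92.3 CPM with 7c and 66.0 to 95.9 CPM with vehicle. Without replicate 6, 3 of 5 treated livers were below all vehicle livers for both lists. The tip cell list, which holds Esm1 itself, had 3 of 6 below and 0 above, fenestrae and caveolae 3 below and 1 above, and angiocrine genes 2 below and 3 above. Without replicate 6 these had 2, 2 and 1 of 5 below. VEGF ligands and receptors had 0 below and 1 above, and the PP1 family, which holds Ppp1r16b, had 0 below and 0 above. The part of these sums in the values of Esm1 and Ppp1r16b was not tested. The lowest p belonged to Tbx3 (-0.33, SE 0.15, adjusted p = 1.00, edgeR) and to Ppp1cb, a catalytic partner of Ppp1r16b (-0.16, SE 0.07, adjusted p = 1.00, edgeR). By list, 22 of 32 pan-endothelial, 11 of 14 sinusoidal, 4 of 6 angiocrine and 3 of 3 glomerular genes were under 0. The counts were 5 of 9 for VEGF ligands and receptors, 5 of 8 for tip cell genes, 3 of 8 for fenestrae and caveolae and 5 of 8 for the PP1 family.

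The ranges of marker lists of other cells overlapped between the treatments in liver, in sums of CPM. Macrophage and Kupffer cell genes ran from 87.8 to 283.2 with 7c and from 113.9 to 318.6 with vehicle. Pericyte, stellate and smooth muscle genes ran from 115.5 to 158.5 and from 126.5 to 142.2, with 4 of 6 treated livers below and 2 above all vehicle livers (3 and 2 of 5 without replicate 6). Lymphatic genes ran from 71.0 to 116.2 and from 110.2 to 125.8, with 5 of 6 treated livers below all vehicle livers. The lymphatic list is not separate from the sinusoid: it holds Lyve1 and Flt4, which are in the sinusoidal list too, and Prox1, a factor that hepatocytes also express. Red blood cell genes ran from 393.1 to 1270.0 and from 428.3 to 577.4, leukocyte genes from 5.28 to 12.9 and from 3.46 to 7.82, and fat cell genes from 1.66 to 5.60 and from 0.859 to 3.95. Hepatocyte genes ran from 69500 to 99800 with 7c and from 68480 to 88160 with vehicle, and podocyte genes, 2 of 4 of them at 0, from 5.49 to 6.97 and from 4.04 to 6.28. Without 7c replicate 6 the macrophage sums in the 7c group started at 154.3, the leukocyte sums ended at 11.6, the hepatocyte sums ended at 92280, and 4 of 5 livers lay below all vehicle livers for lymphatic genes. Their part in the Esm1 and Ppp1r16b values was not tested.

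Set against Pecam1 plus Cdh5 of the same library, both genes were still lower in treated livers. Esm1 amounted to 1.73% to 5.81% of the CPM of Pecam1 plus Cdh5 with 7c (median 2.11%) and to 3.18% to 10.3% with vehicle (median 6.82%). Ppp1r16b amounted to 5.67% to 11.4% with 7c (median 7.25%) and 10.7% to 15.1% with vehicle (median 12.9%). For each gene 5 of 6 treated livers lay below all vehicle livers. Without replicate 6, whose Esm1 ratio was the highest of the 7c group, these counts were 5 of 5 for Esm1 (up to 3.02%) and 4 of 5 for Ppp1r16b. Against the sum of Pecam1, Cdh5, Tie1, Tek and Eng, these counts were 5 of 6 for Esm1 and 6 of 6 for Ppp1r16b. For Clec4g 4 of 6 treated livers lay above all vehicle livers (99.4% to 159.3% against 89.1% to 117.8%), and against the 5 genes 3 lay above and 1, replicate 6, below. These ratios carry the values that chose the genes and have no test.

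**Figure D3:**
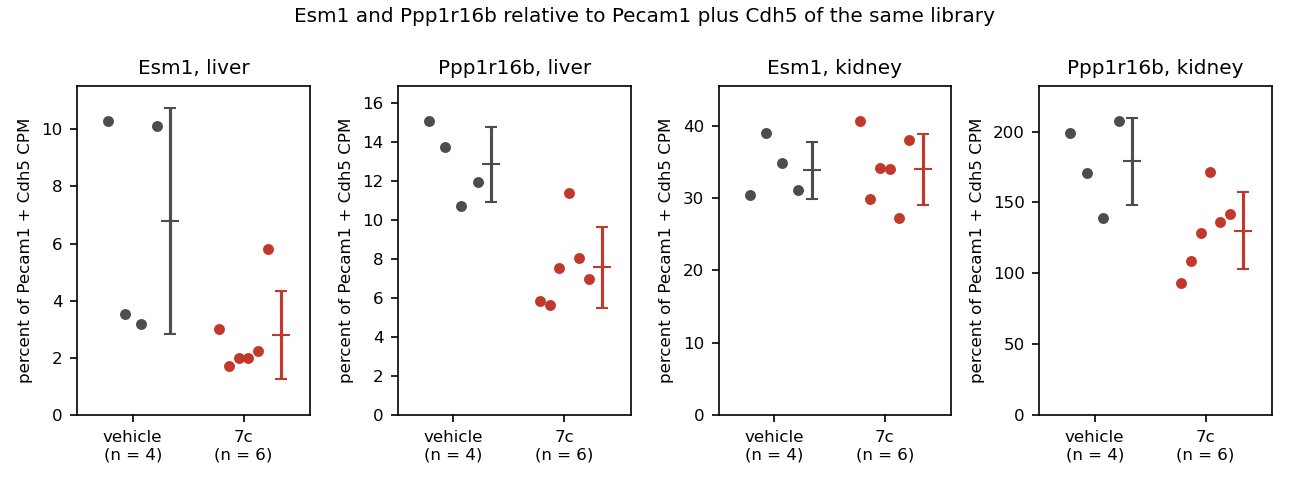
CPM of Esm1 and Ppp1r16b as a percent of Pecam1 plus Cdh5 in the same library, by tissue, with vehicle in grey, 7c in red and bars at mean ± SD. In liver 5 of 6 treated values lie below all vehicle values for each gene, and in kidney 4 of 6 do for Ppp1r16b and 2 of 6 for Esm1.

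The third comparison asked the same of the kidney, where 0 of 17749 genes passed (0.0%, edgeR), 463 had an unadjusted p under 0.05, and DESeq2 called 18, limma-voom 2 and the likelihood ratio test 14. Clec4g, with 0 to 5 counts, and Lyve1, with 0 to 22, were under the filter of 10 counts in 50% of the libraries, so 8 of the 10 genes were tested.

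Esm1 overlapped between treated and vehicle kidneys. It measured 31.7, 26.5, 25.2, 21.7, 17.6 and 30.6 CPM with 7c and 21.1, 20.7, 27.4 and 22.7 CPM with vehicle (log2 0.15, SE 0.17), with 2 treated kidneys above and 1 below all vehicle kidneys. The log2 fold change of Esm1 was 0.09 without 7c replicate 1 and 0.25 without vehicle replicate 3. Ppp1r16b measured 72.6, 96.7, 94.8, 109.3, 87.8 and 114.2 CPM with 7c and 137.8, 90.8, 109.0 and 151.2 CPM with vehicle. Its log2 fold change was -0.35 (SE 0.16), the groups overlapped, and 2 of 6 treated kidneys lay below all vehicle kidneys. All 6 did so for 0.406% of the tested genes. It was -0.46 without vehicle replicate 2 and -0.23 without vehicle replicate 4.

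Of the 6 other genes tested in kidney, 0 passed and 0 had an unadjusted p under 0.05 (edgeR, adjusted p = 0.997 for each), and DESeq2, limma-voom and the likelihood ratio test also called 0. Plvap was at 170.1, 167.0, 96.2, 157.6, 208.1 and 147.8 CPM with 7c and 108.8, 212.0, 106.8 and 111.7 CPM with vehicle (log2 0.23, SE 0.23). Its highest kidney was vehicle replicate 2, and without that library the fold change was 0.54 (adjusted p = 0.476, edgeR). Stab2 was at 3.63 to 8.10 CPM with 7c and 3.84 to 5.07 CPM with vehicle (0.19, SE 0.23), and its fold change was 0.0069 without 7c replicate 2. Pecam1 was at 44.2 to 62.7 and 39.5 to 51.1 CPM (0.14, SE 0.12), with 3 of 6 treated kidneys above and 0 below all vehicle kidneys. Its fold change was 0.07 without 7c replicate 2.

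Cdh5 was at 18.03 to 28.1 CPM with 7c and 13.7 to 27.5 CPM with vehicle (0.11, SE 0.19), Kdr at 28.3 to 54.7 and 36.1 to 54.4 CPM (0.06, SE 0.19) and Ehd3 at 30.1 to 37.5 and 29.2 to 35.3 CPM (0.01, SE 0.11). Without vehicle replicate 2, the lowest of the 10 kidneys for Pecam1, Cdh5, Lyve1 and Ehd3, the fold changes of Cdh5, Kdr and Ehd3 were -0.06, -0.01 and -0.03. The interval of the Ehd3 difference, -0.20 to 0.22, was the narrowest. Lyve1 had 6, 2, 22, 18, 12 and 20 counts with 7c and 8, 0, 4 and 6 with vehicle, which are too few for a fold change.

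Of the 6 tested genes besides Esm1 and Ppp1r16b, 6 had a log2 fold change above 0 in kidney (median 0.12), and 51.0% of all tested genes were under 0. Without vehicle replicate 2 it was 3 of 6 (median 0.03). Of 77 tested genes of the 8 lists besides the 10, 53 were above 0 and 0 passed (edgeR), and with each library left out in turn 47 to 61 of 77 were above 0. Cdh13 (0.66, SE 0.27) and Cavin1, a coat protein of caveolae (0.27, SE 0.11), had the lowest p, each with adjusted p = 0.997 (edgeR).

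Fat cell genes summed to 6.00 to 39.8 CPM in treated kidneys and 0.557 to 7.40 CPM in vehicle kidneys, so 5 of 6 treated kidneys lay above all vehicle ones. Red blood cell genes summed to 470.9 to 2259.0 and 308.2 to 1309.0 CPM, and the pan-endothelial list to 676.6 to 846.2 and 652.5 to 809.1 CPM. For these 2 of 6 and 3 of 6 treated kidneys lay above all vehicle ones, and 0 below. Hepatocyte genes summed to 79.5 to 325.3 and 205.6 to 294.7 CPM and podocyte genes to 102.1 to 128.1 and 115.8 to 130.7 CPM. Macrophage genes summed to 71.6 to 87.5 and 83.0 to 102.3 CPM, and for hepatocyte, podocyte and macrophage genes alike 4 of 6 treated kidneys lay below all vehicle ones. All 5 hepatocyte genes had a log2 fold change under 0 (median -1.08, 0 called by edgeR). Pericyte and smooth muscle genes summed to 188.1 to 243.9 and 162.3 to 219.9 CPM, and leukocyte genes to 7.32 to 10.7 and 6.13 to 9.60. Lymphatic genes summed to 22.1 to 34.01 and 20.2 to 31.0 CPM. Their part in the kidney values was not tested.

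**Figure D4:**
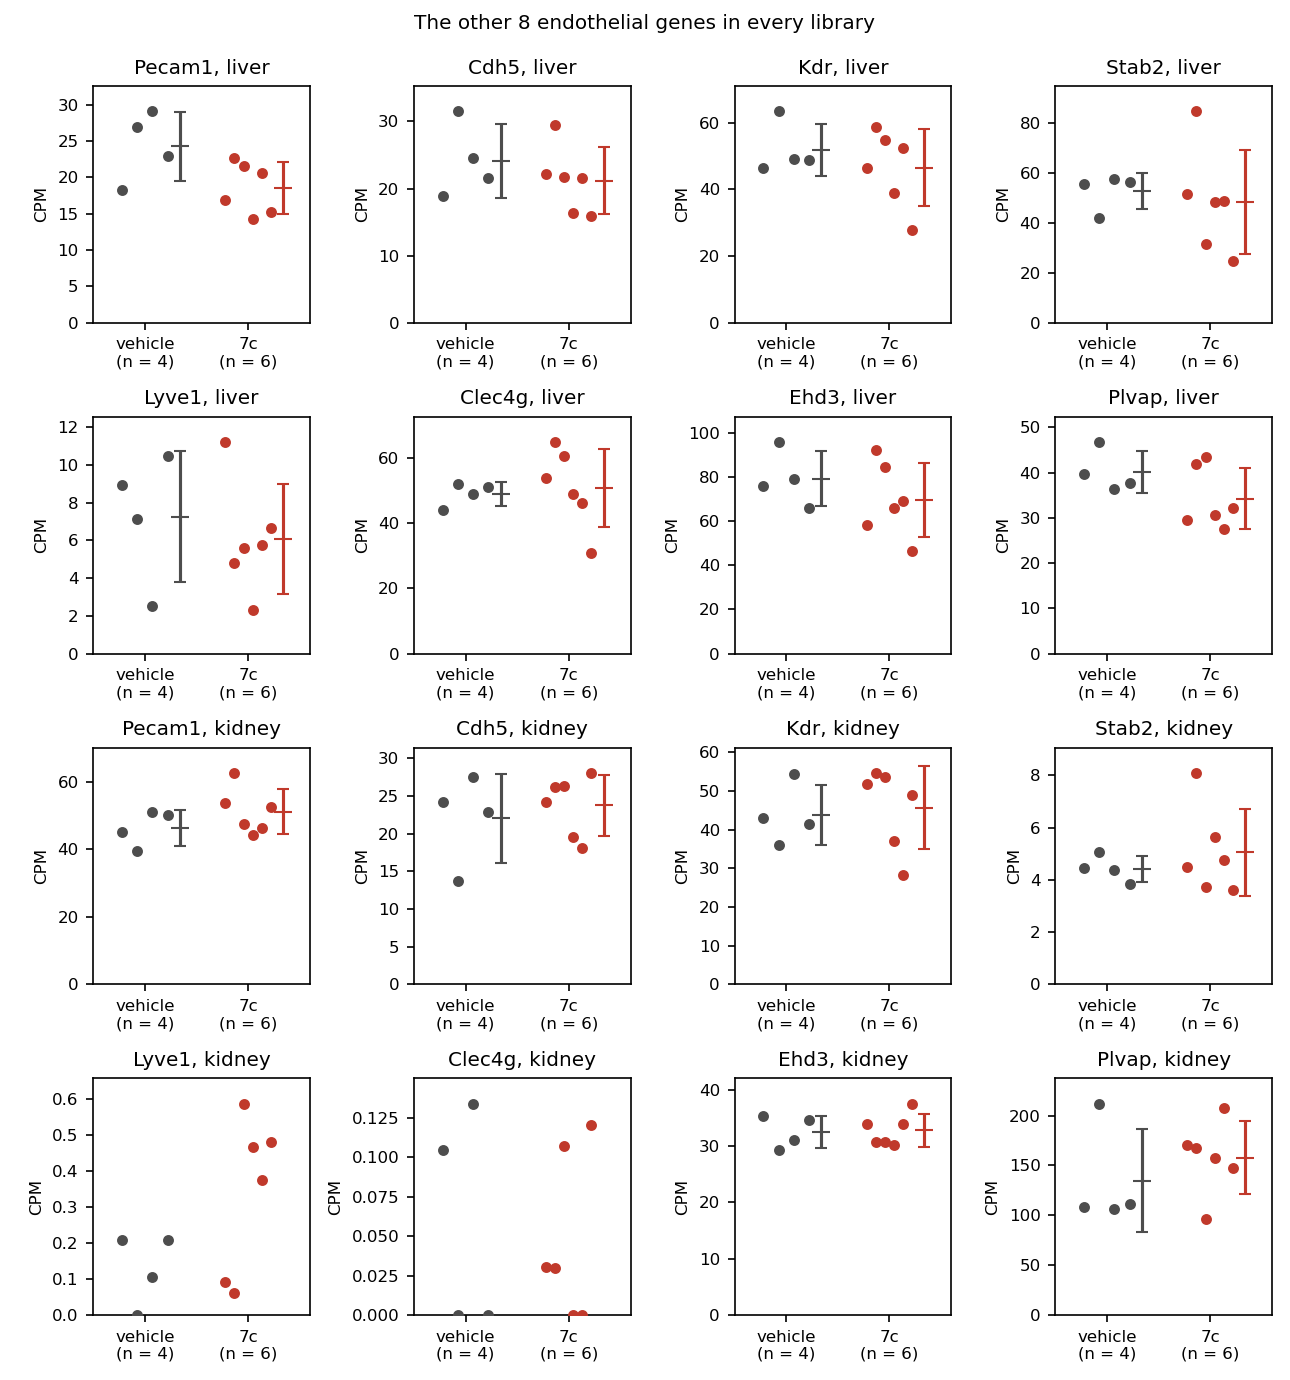
CPM of the other 8 genes in every liver and kidney library, with vehicle in grey and 7c in red, and bars at mean ± SD (left out for Lyve1 and Clec4g in kidney, which had at most 22 counts). The 7c and vehicle points overlap in each of the 16 panels.

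Relative to Pecam1 plus Cdh5, Esm1 in kidney was 27.3% to 40.6% with 7c and 30.4% to 39.0% with vehicle, with 1 treated kidney above and 2 below all vehicle ones. Ppp1r16b in kidney was 93.2% to 171.6% with 7c and 138.8% to 207.3% with vehicle, and 4 of 6 treated kidneys lay below all vehicle ones.

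The last comparison tested whether the 7c difference itself differed between the organs, as an interaction over 14163 genes, of which 1 passed (0.00706%), the carboxylesterase Ces1c, named after its value was seen. All 6 genes tested besides Esm1 and Ppp1r16b had a more negative difference in liver than in kidney (median -0.32; -0.22 without liver 7c replicate 6), as had 50.2% of all genes. For Esm1 the liver difference was lower by -1.69 on the log2 scale (SE 0.38) and for Ppp1r16b by -0.74 (SE 0.24), without a test for the reason given above. Of the other 6 genes, 0 passed, 1 had an unadjusted p under 0.05 (Pecam1, -0.54, SE 0.21, adjusted p = 1.00, edgeR), and DESeq2, limma-voom and the likelihood ratio test also called 0. In the 8 lists, 55 of 73 further genes were under 0 and 0 passed (edgeR). With each library left out in turn that count ran from 48 to 57.

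**Figure D5:**
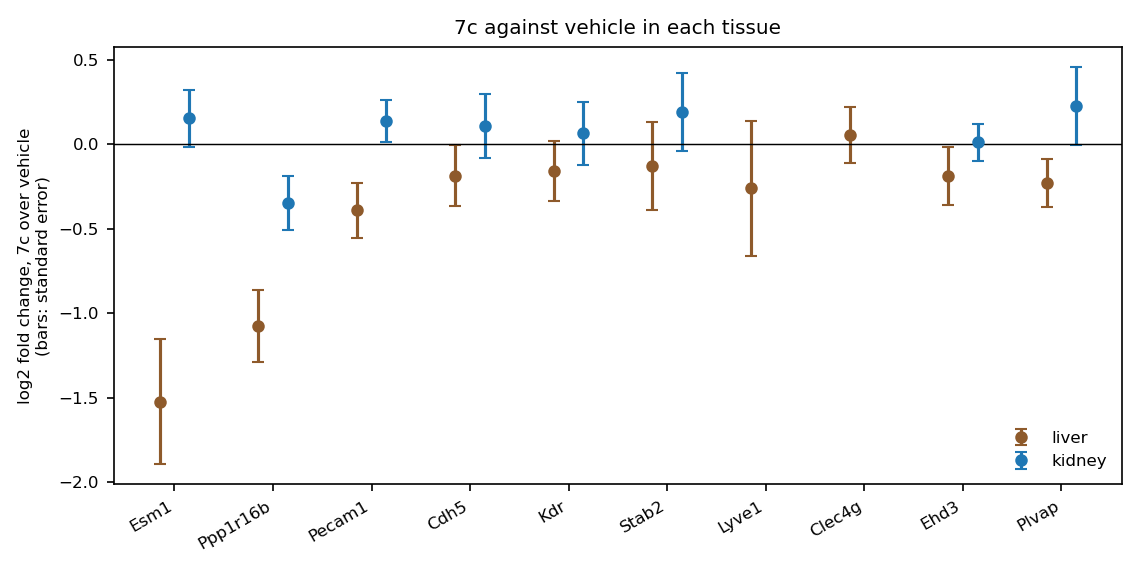
Log2 fold change of 7c over vehicle for each gene in liver (brown) and kidney (blue), with bars of 1 standard error and no kidney value for Lyve1 and Clec4g. Esm1 and Ppp1r16b in liver lie at -1.52 and -1.08, and every other value lies between -0.39 and 0.23.

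The neighbours of both genes on the chromosome were measured as well. Next to Ppp1r16b in liver, Actr5 lay 25.9 kb before it and differed by 0.16 (SE 0.17), and Dhx35 lay 28.4 kb after it and differed by -0.18 (SE 0.17), each with adjusted p = 1.00 (edgeR). In kidney Actr5 was at 0.37 (SE 0.17) and Fam83d, 1.75 kb after Ppp1r16b, at 0.79 (SE 0.65, 0.0557 to 0.769 CPM), with adjusted p = 0.997 for each (edgeR). The tested genes nearest to Esm1 lay farther away. In liver Gpx8, 163 kb before it, was at 0.17 (SE 0.54) and Gm34471, 305 kb after it, at -1.91 (SE 0.70, at most 1.36 CPM), both with adjusted p = 1.00 (edgeR). In kidney Gzma, 108 kb before it, was at 0.61 (SE 0.51) and Cspg4b, 75 kb after it, at -0.34 (SE 0.19), both with adjusted p = 0.997 (edgeR).

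The genes whose log2 CPM ran most like Esm1 over the 10 livers were Epcam (Pearson r = 0.91), Meis3 (0.90) and Gucy2c (0.88), all at or under 7.54 CPM. Over the 10 kidneys they were Ncf1 (0.89), Sel1l3 (0.89) and Slc2a1 (0.89), and Kdr ranked 13 of all tested genes there (0.87), whereas in liver its r with Esm1 was -0.03. For Ppp1r16b they were Evi5 (0.94), Sh3rf1 (0.91) and Lratd1 (0.90) in liver and Dnah12 (0.90), Gm26648 (0.90) and Sfmbt1 (0.87) in kidney. Between Esm1 and Ppp1r16b r was 0.55 in liver and -0.20 in kidney. These are the highest of all tested genes over 10 libraries that share treatment and depth, and carry no test.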

How the data were processed

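RNA of liver and kidney was sequenced as stranded polyadenylated libraries. The authors aligned reads to GRCm39 with STAR 2.7.11b and counted them with featureCounts 2.0.6, and the deposited values are raw whole-number counts of 57010 genes, without normalization. The annotation release, the strand setting and the counting of read pairs are not given in the sources used here. Symbols, positions and exon lengths came from GENCODE vM39, which matched 56310 genes, and 0.0417% of counts lay in genes without a match.

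Genes that reached 10 counts in 50% or more of the libraries in a fit were tested with edgeR 4.0.16 (quasi-likelihood F-test, TMM, Benjamini-Hochberg over all genes, threshold 0.05) in R 4.3.3, each tissue apart with treatment as the only term. Each library was one sample, and p-values measure the spread between the labelled biological replicates. CPM used TMM library sizes of the tissue, TPM exon union lengths, and likeness log2 CPM with a prior count of 2. SEs were derived from the test statistic, and approximate 95% intervals from the SEs. The tests were checked on simulated counts. The alternatives were RLE size factors, library size alone, DESeq2 1.42.0, limma-voom (limma 3.58.1), the likelihood ratio test, no filter, filterByExpr, a replicate block, leaving out each library, and all 20 libraries in 1 fit; counts halved and rounded up were added after the data were seen.

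The 10 genes, the 18 marker lists and the tests were chosen with earlier results of these data known. The text names the 10 genes, up to 4 genes a list with the largest organ difference past the threshold and at least 10 counts in every library of 1 tissue, the 2 lowest p per tissue where no list gene passed, the nearest tested neighbours, and the 3 genes most like Esm1 and Ppp1r16b. Lists of cells other than endothelium are given as sums, and the hepatocyte list in kidney also by its fold changes. The muscle library was noted after its values were seen.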

Additional observations from a re-analysis of the deposited data

Results flagged for a closer look

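Of 40 groups of libraries, formed by gene, tissue and treatment, 4 had 1 library far from the others in its group by Dixon's criterion, and chance gives about 1 in 20. In vehicle liver, replicate 2 was the high value for Ppp1r16b (8.02 CPM) and Kdr (63.4 CPM) and the low value for Stab2 (41.8 CPM). In vehicle kidney, replicate 2 was the high value for Plvap (212.0 CPM). Both are groups of 4. The causes were not tested.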

How the results depend on the processing

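The number of genes past the threshold stayed within 1.5 times of the value given in every alternative run: 0 of the other 8 in liver, 0 in kidney and 0 for the interaction, and, of the genes past the filter in both organs, 6 to 8 of 8 between organs in vehicle (7 in the fit given) and 4 to 6 of the 6 not chosen on 7c values in 7c (6). Both lowest counts include the fit with library size alone. Of the alternative fold changes with a test, 698 kept direction and call, 9 reversed, 7 lost and 2 gained the call. The other 242, of Esm1 and Ppp1r16b with 7c and of Clec4g and Lyve1 between organs, carry no test and kept direction. Leaving out 1 library at a time, Stab2 in liver ran from -0.363 to 0.00878 and Clec4g from -0.0279 to 0.164, and in kidney Cdh5 ran from -0.0561 to 0.233, Kdr from -0.00931 to 0.186 and Ehd3 from -0.0309 to 0.0528. With the replicate block Ehd3 in kidney was -0.0517, and with library size alone Cdh5 in 7c liver against kidney was -0.179. The call of Cdh5 was lost without vehicle liver replicate 2 (0.61, adjusted p = 0.0505, edgeR) and, in 7c, without kidney replicate 1 (0.42), 4 (0.36) or 5 (0.34). Pecam1 in vehicle was called without kidney replicate 2 (-0.47, adjusted p = 0.0320, edgeR).

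Counts over all genes depended on the tool. In liver the quasi-likelihood test called 1 gene, DESeq2 6, the likelihood ratio test 7, no filter 4, filterByExpr 2 and the fit of all 20 libraries 4, and 0 to 2 were called without 1 library. In kidney these were 0, 18, 14, 3, 0 and 18, and the halved counts gave 2. For the interaction they were 1, 16, 22, 11 and 2 without the joint fit, and limma-voom gave 0. Without kidney vehicle replicate 2, genes in kidney at an unadjusted p under 0.05 went from 463 to 1801, and without kidney 7c replicate 6 the interaction had 10 calls.

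The labels number the replicates but do not say that a number marks 1 mouse. Deviations of liver and kidney libraries with the same number correlated at 0.0115 to 0.259, and 8 of 10 correlated best with their own number, as a hint from the data. For 7c and vehicle the range was -0.0641 to 0.293, and 1 of 8 did. The numbers were not taken as pairing. With the replicate block, 0 of the other 8 genes passed in liver, 0 in kidney and 0 for the interaction, and 7 of 8 genes between organs in vehicle and 6 of 6 in 7c. Within liver or kidney the block joined 7c and vehicle libraries of the same number, which come from different animals. The 7c replicates 5 and 6 have no such partner and add nothing to that contrast, so the block is no check on it. Over all genes the block gave 0, 0 and 0 calls, and 8744 and 11012 between organs. Counts halved and rounded up left Esm1 at -1.52 and Ppp1r16b at -1.07 in liver. Low counts limit what can be said of Clec4g and Lyve1 in kidney, and Esm1 in liver rests on 18 to 154 counts.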
